A study of Mus musculus with 4 samples.

Results

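The cells described here are callus macrophages that carry C1q RNA and little or no Arg1. They were chosen by their measured counts: a barcode was a member if it held at least 200 genes, less than 10% mitochondrial counts, at least 1 Csf1r count, at least 5 counts of C1qa, C1qb and C1qc together, and fewer than 5 Arg1 counts. A count is a unique molecular identifier (UMI), which marks 1 captured RNA molecule. The rule found 447 cells among the 33698 barcodes kept: 59 in control 1, 220 in control 2, 91 in adenosine 1 and 77 in adenosine 2. Values below are given in that order of libraries.

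All 4 libraries came from healing tibial calluses of 20-month-old male C57BL/6J mice, taken 7 days after treatment with an empty control microgel (2 libraries) or a microgel carrying adenosine (2 libraries). The labels name bone marrow as the tissue but call the samples fracture callus, and the suspensions were cleared of red cells and sorted for viability, so the members are the macrophages left after that handling. The labels do not tell whether libraries with the same treatment hold different mice, and p-values therefore measure only the spread between libraries.

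C1q is the recognition subunit of the classical complement pathway, built from the A, B and C chains that C1qa, C1qb and C1qc encode, and in tissues it is made mainly by macrophages. It binds dying cells and immune complexes and helps phagocytes take them up. Arg1, the arginase that splits arginine into ornithine and urea, marks wound macrophages, and a fracture callus holds both macrophages that differentiate from recruited blood monocytes and macrophages that live in the marrow. Adenosine acts on immune cells through G protein-coupled receptors that raise or lower cyclic AMP.

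The C1q genes lie side by side on mouse chromosome 4. Their RefSeq promoters are shown because these genes set the membership; C1qa was not matched. Capitals mark GAGGAA, the core read by the myeloid factor PU.1, and TGCTGA, a MAF half-site, each searched on both strands, so a minus-strand core appears as TTCCTC. The windows run from 250 bases before to 50 bases after the gene start on GRCm38.p6, 5′ to 3′ along the gene.
C1qb, chr4:136886151-136886450, minus strand: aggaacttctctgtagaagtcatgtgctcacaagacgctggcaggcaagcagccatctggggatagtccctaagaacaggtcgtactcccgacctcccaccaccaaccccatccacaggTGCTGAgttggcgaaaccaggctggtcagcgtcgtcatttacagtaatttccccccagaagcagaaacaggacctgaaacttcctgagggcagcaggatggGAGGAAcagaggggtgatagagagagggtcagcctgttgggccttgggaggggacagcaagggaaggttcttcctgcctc
C1qc, chr4:136892865-136893164, minus strand: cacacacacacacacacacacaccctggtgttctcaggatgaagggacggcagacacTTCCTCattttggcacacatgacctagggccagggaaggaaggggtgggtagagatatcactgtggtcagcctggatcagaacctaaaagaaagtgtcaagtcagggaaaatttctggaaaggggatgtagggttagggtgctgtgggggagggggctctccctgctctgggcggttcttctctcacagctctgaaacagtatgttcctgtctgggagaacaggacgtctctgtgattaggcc
The C1qb window held the core 30 bases and the half-site 131 bases before the start, and the C1qc window held the core 193 bases before it. Of 32851 promoters of this length, 28.3% held GAGGAA and 19.5% held TGCTGA, so these matches are common letters and describe no binding.

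Most members were deeply sequenced and lay well inside the C1q and Arg1 thresholds. Their median depth was 11283, 9578, 11280 and 11508 UMIs, and 372 of the 447 held at least 10 C1q UMIs. Just inside the limit, 28 members held 5 or 6, and just outside it 46 cells with Csf1r and little Arg1 held 3 or 4. On the Arg1 side, 379 members had no Arg1 UMI, 68 had 1 to 4, and 31 further cells with C1q were left out with 5 to 9. Of those 68, 51 were in control 2, so the absence of Arg1 is a limit and not a zero. Another 18 barcodes held 5 or more C1q UMIs without Csf1r. On the Csf1r side, 79 members held only 1 or 2 UMIs, 42 of them in control 2. When 2000 UMIs were drawn from each cell (thinning) before the rule was applied, it kept 14, 113, 41 and 29 cells. Membership therefore depends on depth. No 2 libraries shared a member barcode, and they shared 11 to 27 of the kept barcodes per pair.

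Control 2 stood apart from the other libraries in its macrophages. It held 290 cells with Csf1r and at least 5 Arg1 UMIs (Arg1-high macrophages), where the others held 12, 32 and 9, and 211 Ly6c2-high monocytes (Csf1r, at least 5 Ly6c2 UMIs, fewer than 5 C1q and 5 Arg1 UMIs), where the others held 1034, 847 and 1217. In its neutrophils the 28 inflammatory mediators summed to 30842 CPM (counts-per-million, a gene's summed UMIs scaled to a common library total), against 1854 to 2802 in the other libraries. Several results that rest on control 2 are given with and without it.

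C1q macrophages were a small share of the callus cells in every library. They made up 0.626% (95% Wilson interval 0.486 to 0.806) of kept cells in control 1, 3.31% (2.91 to 3.77) in control 2, 1.03% (0.837 to 1.26) in adenosine 1 and 0.878% (0.703 to 1.10) in adenosine 2. Both adenosine libraries therefore lay between the 2 controls. The mean was 0.953% ± 0.105 (SD, n = 2) with adenosine and 1.97% ± 1.90 (SD, n = 2) in controls, a difference of -1.02 percentage points with a two-sided exact permutation p of 1, where 2 against 2 cannot go below 0.333. Without control 2 the difference was 0.327 points in the opposite direction. Among cells with Csf1r the shares were 2.38%, 11.8%, 4.83% and 4.08%, in the same order of libraries. Intervals cover counting error only.

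**Figure D1:**
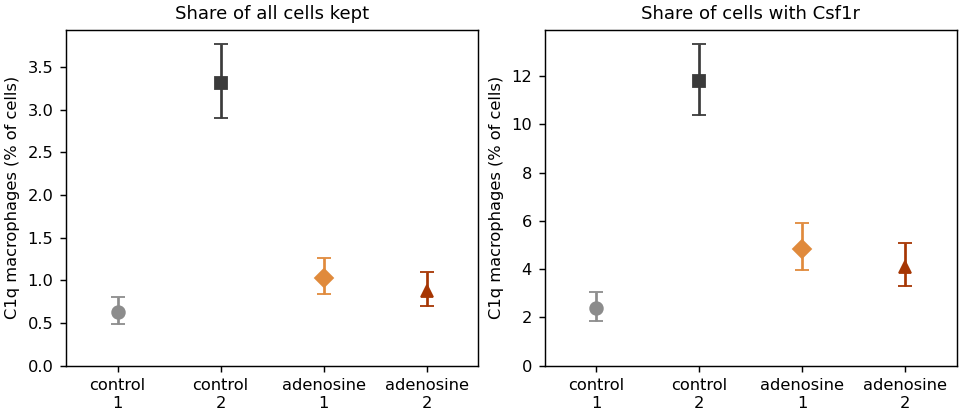
C1q macrophages as a percent of all cells kept (left) and of cells with at least 1 Csf1r UMI (right), 1 point per library with its 95% Wilson interval. Control 2 stands above the other 3 libraries in both panels, and the 2 adenosine libraries lie between the controls.

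The cells carried the genes that their name calls for. In the summed members C1qa stood at 864, 1391, 1240 and 1140 CPM, C1qb at 1262, 1919, 1517 and 1740, and C1qc at 575, 883, 925 and 798, levels that the rule itself set. Outside the rule, the macrophage genes Adgre1 (F4/80), Cd68, Fcgr1 and Mertk were all present in every library. Mertk, a receptor for dying cells, was at 141, 107, 250 and 66.2 CPM, against 0.915 to 8.44 in Ly6c2-high monocytes. The mannose receptor Mrc1, named as a marker of these cells, was at 350, 636, 876 and 171 CPM, and its highest and lowest levels were both in adenosine libraries. Arg1-high macrophages carried both genes too, with Mertk at 23.0, 75.3, 84.8 and 109 CPM and Mrc1 at 123, 306, 243 and 366. In adenosine 2 both were higher there than in the members.

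Markers that resident macrophages are known for were found in a minority of members or in none. Timd4, a phosphatidylserine receptor of resident macrophages, and Lyve1, a hyaluronan receptor, had no UMI in any of the 447 members, which allows a share of up to 0.671% of cells with a UMI and sets no limit on cells that express the gene. Cd163, the haemoglobin scavenger receptor, was seen in 6 of the 447. Spic, a transcription factor of iron-recycling macrophages, was seen in 30 (1.57% after thinning to 2000 UMIs, against 0.0313% of neutrophils). Siglec1, a sialic acid receptor of tissue macrophages, was seen in 51 members (2.69% after thinning, against 0.0235% of neutrophils), and Folr2, a folate receptor of resident macrophages, in 63 (6.28% against 0.0391%). Vcam1, an adhesion molecule of macrophages that serve red cell development, was in 28 members, and after thinning in 1.12% against 1.71% of neutrophils; in control 2 these shares were 0.909% and 0.0968%.

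The chemokine receptor gene Ccr2 and the MHC class II gene H2-Aa were found in most members. After each cell was thinned to 2000 UMIs, which left out 1 member, Ccr2, through which monocytes are recruited, was detected in 69.5%, 75.9%, 63.3% and 81.8% of members, and in 3.18% of neutrophils treated in the same way. H2-Aa, a chain of MHC class II, was detected in 86.3% of members (92.4% before thinning) and in 7.32% of neutrophils (11.5% before thinning). Neutrophils, taken as cells with at least 50 S100a8 and S100a9 UMIs, Csf3r and no Csf1r, gave the background share, with medians of 2801 to 3052 UMIs. Ly6c2, a surface antigen of classical monocytes that the neutrophils also carried (192 to 908 CPM), was in 25.4%, 15.5%, 16.7% and 51.9% of thinned members, the highest share being in adenosine 2.

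Members differed among themselves in lectin, lipid and fractalkine receptor genes. Mrc1 was detected in 46.0% of thinned members (69.8% before thinning) against 0.274% of neutrophils, and by library in 35.6%, 50.5%, 62.2% and 22.1%. Trem2, a lipid-sensing receptor of macrophages, was in 27.6% (61.1% before thinning), and only 9.09% of adenosine 2 members carried it. Cx3cr1, the fractalkine receptor, was in 22.0% (48.3% before thinning) and Gpnmb in 5.83% (12.1% before thinning). Neutrophil shares of Trem2, Cx3cr1 and Gpnmb were 0.446%, 1.53% and 0.0861%. The proliferation gene Mki67 was in 2.47% of members (8.28% before thinning). Neutrophils gave no background for it, since their class held cell cycle RNA of its own (24 genes summing to 1027 to 4009 CPM).

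**Figure D2:**
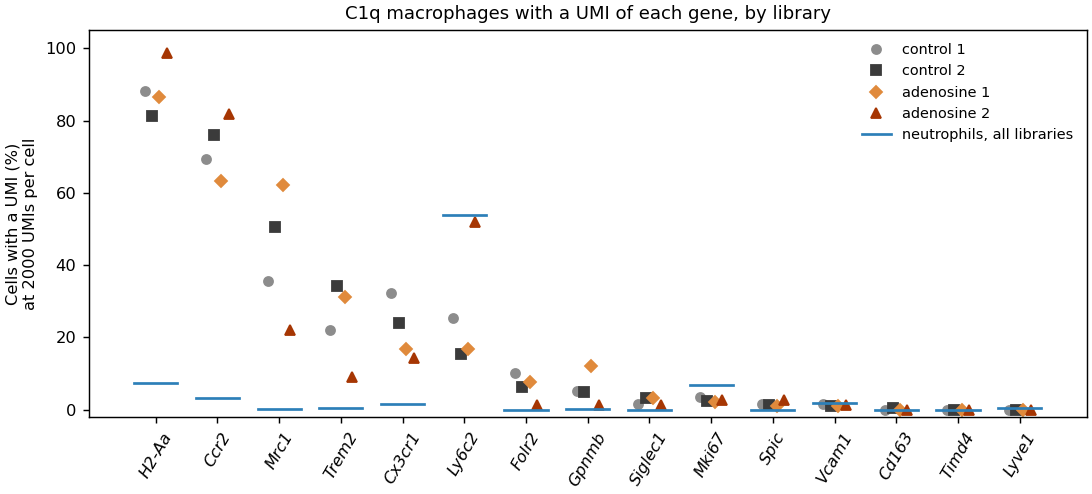
Percent of C1q macrophages with at least 1 UMI of each gene after thinning every cell to 2000 UMIs, 1 symbol per library, with the share in neutrophils as a blue line. H2-Aa and Ccr2 lie far above the line in every library, Mrc1 and Trem2 vary between libraries, and Timd4 and Lyve1 are at 0.

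Pairs of these genes were counted within libraries. Trem2 and Gpnmb were found together in 15 members, where the product of their shares within each library gives 7.92. Cx3cr1 and Ly6c2 were found together in 14, where the product gives 21.2. Mrc1 and Ccr2 were together in 153 cells, close to the product of 148. Cells of 1 library share their source, and these counts are descriptions.

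Members with an Mrc1 UMI left after thinning (21, 111, 56 and 17 cells) and members without one (38, 109, 34 and 60) were compared as a description. They are called cells with and without Mrc1 here, and their levels come from unthinned counts. Before thinning, 42, 162, 75 and 33 members held an Mrc1 UMI, so many cells called without Mrc1 carry it. The monocyte-attracting chemokine Ccl7 stood at 95.4, 374, 137 and 32.0 CPM with Mrc1 and at 2.22, 57.7, 0 and 18.7 without. Ccl12, another ligand of Ccr2, was also higher with Mrc1 in each library, at 29.4, 116, 109 and 26.6 CPM against 0, 3.35, 4.15 and 17.4. Cells without Mrc1 had more of the tetraspanin Cd9, at 474, 611, 355 and 104 CPM against 250, 216, 129 and 42.6, and more of the cell cycle inhibitor Cdkn1a, at 131, 190, 118 and 152 CPM against 25.7, 109, 70.0 and 69.3. The osteopontin gene Spp1 was likewise higher without Mrc1 in all 4 libraries, but by very little in adenosine 1 (677 against 658 CPM). Spp1 was found in 20 of 59 members of control 1 and 8 of 77 of adenosine 2. A single cell held 33.7% and 53.4% of its UMIs there, so these differences rest on few cells. The C1q genes themselves differed by up to 0.70 on the log2 scale. Each of them was higher with Mrc1 in control 2 and adenosine 1 and lower in control 1, and adenosine 2 was mixed. Ccl7, Ccl12, Cd9 and Cdkn1a were picked for differing in the same direction in every library, so that agreement follows from the choice. In control 1, Ccl7 had 27 UMIs in 4 members and Ccl12 had 8 UMIs in 2. In adenosine 2, Ccl7 had 20 UMIs in 5 members.

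Against Arg1-high macrophages, the members had more H2-Aa and Ciita, genes of antigen presentation, and a lower summed level of the hypoxia and glycolysis list. Classes were defined by expression, so no test applies. Arg1-high macrophages numbered only 12 cells in control 1 and 9 in adenosine 2, where 3 counts equal 23.0 and 29.7 CPM. Their class had no limit on C1q, and 5, 106, 13 and 8 of its cells held at least 5 C1q UMIs. The contrast is therefore by Arg1 and not between cells with and without C1q. H2-Aa stood at 4636, 4693, 4166 and 8328 CPM in the members and at 897, 921, 1447 and 1970 in Arg1-high cells. Ciita, the master activator of MHC class II genes, was at 178, 112, 183 and 368 CPM against 0, 11.1, 35.3 and 89.1. Selenop, which encodes a secreted selenium carrier, was at 323, 316, 559 and 172 CPM against 99.7, 93.7, 89.5 and 29.7.

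The genes lower in the members than in Arg1-high cells included several induced by low oxygen. Hilpda, a lipid droplet protein of hypoxic cells, was at 12.4, 27.8, 11.8 and 13.9 CPM in the members and 222, 188, 196 and 168 in Arg1-high cells. Egln3, an oxygen-sensing prolyl hydroxylase, differed in the same direction, at 8.29 to 16.4 CPM against 107 to 401. The matrix gene Fn1 was at 1246, 1240, 833 and 181 CPM against 6848, 4757, 2914 and 1336, and the fatty acid receptor Cd36 at 199, 217, 143 and 13.9 against 759, 761, 601 and 218. The summed hypoxia and glycolysis list (19 genes) was 3364, 6181, 4309 and 5315 CPM in the members and 8666 to 13274 in Arg1-high cells. Of 3968 genes compared, 782 were higher and 686 lower in the members in all 4 libraries.

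Against Ly6c2-high monocytes, the members carried macrophage and uptake genes and little cell cycle RNA. Ms4a7, a macrophage membrane gene, was at 245, 536, 594 and 190 CPM against 5.06, 48.3, 4.86 and 4.42. Apoe, the lipid-carrying apolipoprotein, was at 3726, 4827, 6064 and 2527 CPM against 428, 1444, 280 and 222. Top2a, a topoisomerase of dividing cells, was at 15.2, 47.8, 29.2 and 18.2 CPM against 313, 214, 430 and 357. The monocyte class included dividing cells, as its summed cell cycle list (24 genes) of 2884 to 6275 CPM shows beside 815 to 1179 in the members. Uptake genes were not particular to the members. The efferocytosis list (20 genes) summed to 3464, 3025, 3580 and 2462 CPM in them and to 4041, 3481, 3588 and 3682 in Arg1-high macrophages.

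**Figure D3:**
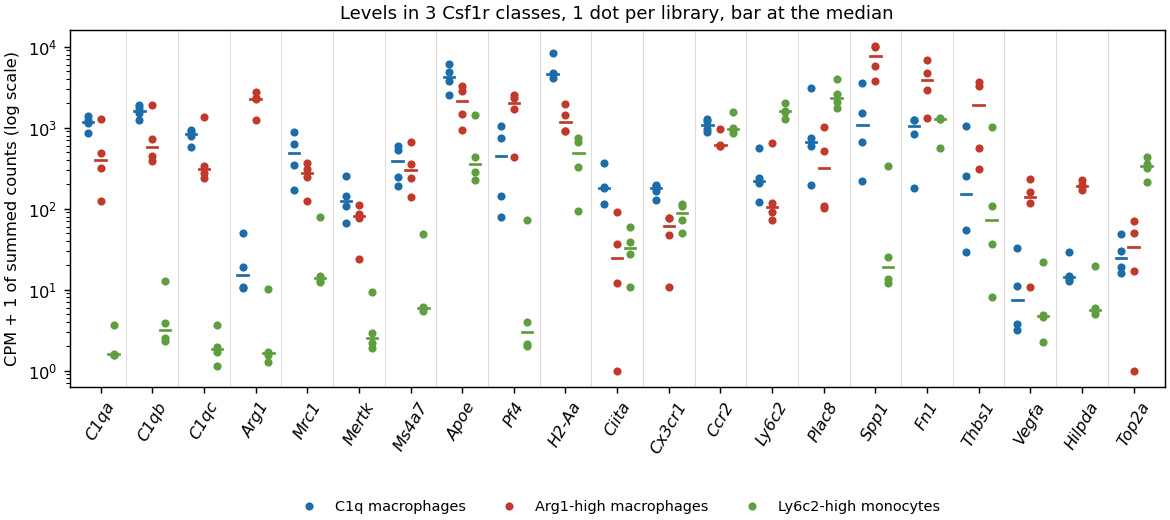
CPM + 1 (log scale) of 21 genes in C1q macrophages, Arg1-high macrophages and Ly6c2-high monocytes, with 1 dot per library and a bar at the median of the 4. H2-Aa and Ciita are highest in C1q macrophages, Fn1 and Hilpda in Arg1-high macrophages, and Top2a in monocytes; Ccr2 overlaps between classes.

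RNA of other cells was present in the summed members. The neutrophil list (12 genes) summed to 17553, 5219, 10052 and 13954 CPM and was lowest in control 2; 58, 140, 81 and 75 members held at least 10 of its UMIs. The granulocyte-monocyte progenitor list (7 genes) summed to 967, 19.6, 82.0 and 609 CPM, and 1 cell held 94.0% of these UMIs in control 1 and 1 cell 84.2% in adenosine 2. The erythroid list (10 genes) reached 353 CPM in adenosine 1, where 1 cell held 85.5%, against 2.61 to 8.29 elsewhere. Mesenchymal (10 genes), endothelial (8 genes) and basophil or mast cell (7 genes) lists stayed at or below 35.5 CPM; Bglap, Sp7, Acan, Pdgfra and Cldn5 had no UMI. The part of these cells in the comparisons was not tested. Members with over 2% S100a8 and S100a9 counts, or the barcodes with the highest doublet scores, were left out in alternatives. The number of genes called was 0 in both, as in the main analysis, so this count cannot show that part.

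No gene passed the test between adenosine and control members. The edgeR quasi-likelihood test on UMI counts summed per library called 0 of 8475 genes (0%) at an adjusted p of 0.05, and the smallest adjusted p was 0.693. At an unadjusted p under 0.05 there were 207 genes (2.44%), 116 higher (1.37%) and 91 lower (1.07%) with adenosine. DESeq2 called 9 genes, 3 higher and 6 lower. Groups did not overlap in 23.8% of genes, 13.3% with adenosine higher and 10.5% with adenosine lower. Of the 8470 tested genes outside the rule, 2065, 1838, 2840 and 1727 were highest in each library, in the order given. Lowest values fell there for 1857, 2427, 1320 and 2866. With 1 library left out, edgeR called 0 genes without either control, 241 without adenosine 1 and 58 without adenosine 2.

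Genes with the lowest unadjusted p and higher values with adenosine included immune and transport genes. Il18bp, a secreted decoy that binds interleukin-18, was at 15.2, 8.69, 67.4 and 68.4 CPM. Its 2 adenosine libraries lay above both controls by 2.58 ± 0.39 (SE) on the log2 scale, with an adjusted p of 0.693 by edgeR. By DESeq2 it was among the 9 genes called, at an adjusted p of 0.0288. Il18bp was seen in 6 of 59, 17 of 220, 16 of 91 and 41 of 77 members, and in adenosine 1 a single cell held 37.8% of its UMIs.

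Slc28a2, a sodium-driven transporter that carries purine nucleosides such as adenosine into cells, was at 2.76, 3.48, 31.0 and 25.6 CPM. These are 2, 8, 34 and 24 UMIs in 2, 8, 26 and 14 members, with 41.7% of those in adenosine 2 from 1 cell. The log2 difference was 3.05 ± 0.48 (SE), with an adjusted p of 0.693 by edgeR, and no single library left out moved it outside 2.94 to 3.31. Gatm, the first enzyme of creatine synthesis, was at 33.2, 25.6, 90.2 and 87.6 CPM. Both genes showed the adenosine libraries above the controls without passing the test. Neutrophils held more Slc28a2 than the members in every library, at 31.2, 13.1, 43.5 and 33.3 CPM. They held Gatm at 41.9, 5.03, 69.8 and 45.7 CPM. The part of neutrophil RNA in the members' values was not tested.

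Other genes named by this rule in the same direction were Gbp5, Ccnd2, Ppargc1b and Rad51b, with log2 differences from 1.33 to 4.62. Ccnd2, a cyclin of the first phase of the cell cycle, was at 8.29, 5.65, 62.9 and 19.2 CPM.

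Among genes with lower values, Thbs1, the matrix glycoprotein thrombospondin-1, was at 252, 1035, 53.8 and 27.8 CPM. Both adenosine libraries lay below both controls, with a log2 difference of -4.03 ± 0.72 (SE) and an adjusted p of 0.871 by edgeR and 8.07e-08 by DESeq2. Without control 2, the log2 difference was -2.62. Neutrophils held Thbs1 at nearly the same levels, 250, 1526, 67.2 and 27.0 CPM. The part of neutrophil RNA in the members' values was not tested. Spp1, the secreted bone matrix protein osteopontin, stood at 1513, 3598, 665 and 220 CPM, a log2 difference of -2.60 ± 0.61 (SE) with an adjusted p of 0.00292 by DESeq2 and no call by edgeR. It was -1.80 without control 2 and -3.48 without adenosine 1. A single cell held 33.7%, 12.7%, 23.2% and 53.4% of its UMIs, so Spp1 was unevenly spread among members. In neutrophils Spp1 was at 20.6, 2452, 14.3 and 16.7 CPM, also highest in control 2.

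Cxcl3, a neutrophil-attracting chemokine, had 26.3 and 54.3 CPM in the controls and no UMI in either adenosine library, where 3 counts equal 2.73 and 3.21 CPM. All 19 of its UMIs in control 1 came from 1 cell. The related Cxcl2 was at 60.8, 331, 20.1 and 42.7 CPM, and 1 cell held 81.8% of its UMIs in control 1 and all of them in adenosine 2. These chemokine values therefore rest on few cells outside control 2, where 22 and 121 members carried Cxcl3 and Cxcl2.

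Plcb1, a phospholipase that acts downstream of G protein-coupled receptors, was at 421, 225, 95.7 and 66.2 CPM. Its groups did not overlap, and DESeq2 gave an adjusted p of 0.0197. The remaining genes of this direction were Cstdc4, Bend4, Dpep2, Nr4a2 and Stfa2l1. Cstdc4 and Stfa2l1, which belong to the stefin family that neutrophils express, were at 69.1, 57.4, 6.38 and 13.9 CPM and at 53.9, 52.2, 19.1 and 10.7 CPM. DESeq2 also called Vcan lower and Socs1 and the immunoglobulin gene Igkc higher, and these 3 were named after their values were seen. Igkc was at 60.8, 34.3, 438 and 100 CPM. The B or plasma cell list (10 genes) summed to 40.1, 10.4, 129 and 35.3 CPM in the members. In adenosine 1 a single cell held 46.8% of the UMIs of that list. The part of B or plasma cell RNA in the Igkc values was not tested.

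**Figure D4:**
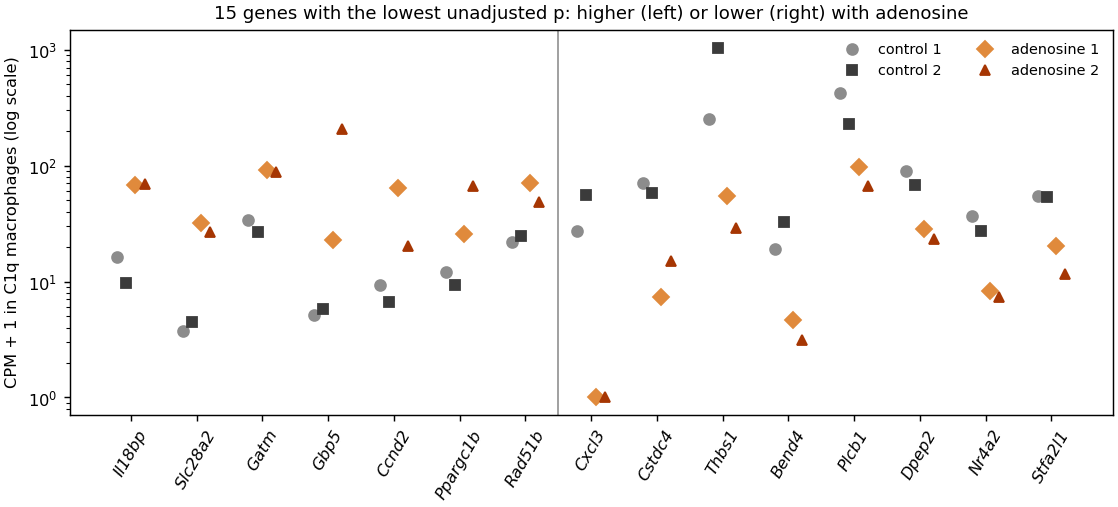
CPM + 1 (log scale) in C1q macrophages of 15 genes named by lowest unadjusted p, 1 symbol per library, higher with adenosine on the left and lower on the right. In each gene both adenosine symbols lie on 1 side of both control symbols; the genes were chosen by this test, and none passed it after adjustment.

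Adenosine receptors were scarce in the members. Adora1 had no UMI in any library. Adora2a, a receptor that raises cyclic AMP, was at 4.15, 5.65, 8.20 and 7.48 CPM and Adora3 at 1.38, 9.13, 5.47 and 2.14, both too low to test. Adora2b, the low-affinity receptor that raises cyclic AMP, was at 24.9, 34.8, 9.11 and 16 CPM. It was lower in both adenosine libraries, by a log2 difference of -1.30 ± 0.46 (SE), and did not pass the test (unadjusted edgeR p of 0.0227). Without control 2 the log2 difference of Adora2b was -0.96.

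RNA of the enzymes that make extracellular adenosine was also found in neutrophils, at 200 to 1055 CPM for Entpd1 and 20.4 to 51.8 CPM for Nt5e, so free RNA cannot be told apart from the members' own. Entpd1 (CD39), which breaks down ATP, was at 169, 116, 171 and 139 CPM with overlapping groups. Nt5e (CD73), which makes adenosine from AMP, was at 18.0, 54.8, 17.3 and 1.07 CPM, with 1 UMI in adenosine 2. Adk, the kinase that clears adenosine inside cells, overlapped between groups at 30.4, 32.6, 46.5 and 18.2 CPM, and the deaminase Ada did not exceed 7.48 CPM. Of the 16 genes for adenosine receptors and handling 10 were tested and 0 called, 2 not overlapping upwards (Slc28a2 and Dpp4) and 2 downwards (Adora2b and Nt5e), beside the 13.3% and 10.5% of all genes.

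Of the 16 genes on the cyclic AMP response list, 15 were tested and 0 called, with a median log2 difference of -0.33 beside 0.01 over all genes. Nr4a2, an immediate-early nuclear receptor, was at 35.9, 26.1, 7.29 and 6.41 CPM, and Nr4a3, of the same family, at 12.4, 11.7, 2.73 and 1.07. In the adenosine libraries 3 counts equal 2.73 and 3.21 CPM, so Nr4a3 did not rise above 3 counts in them. Crem, a cyclic AMP-responsive transcription factor, was at 34.5, 38.7, 16.4 and 15.0 CPM. These 3 had unadjusted p-values under 0.05 by edgeR, beside 1.07% of all genes in this direction, and 4 did not overlap downwards, beside 10.5%. Nr4a3 and Crem were named after their values were seen. The fourth gene without overlap, Nr4a1, differed little at 35.9, 32.2, 30.1 and 26.7 CPM.

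The interferon list separated adenosine 2 from the other 3 libraries. Gbp2, a guanylate-binding protein, was at 76.0, 11.7, 31.0 and 643 CPM, and in adenosine 2 it was found in 68 of 77 members. Cxcl10, a chemokine that attracts T cells, was at 4.15, 28.7, 40.1 and 807 CPM. Cxcl9, of the same kind, was at 58.0, 0, 0 and 971 CPM, and the 42 UMIs of control 1 came from 1 cell, whereas 46 members carried it in adenosine 2.

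Of 19 interferon genes matched 18 were tested, 16 of them were highest in adenosine 2 (1727 of all 8470 genes), and 0 were called. Their median log2 difference was 0.84 beside 0.01 over all genes, and it was -0.67 without adenosine 2, 1.46 without control 2 and 1.54 without adenosine 1. With the rule applied after thinning, where 11 of these genes were tested, the median was 0.08, and it was 0.44 for members with no Arg1 UMI. Of these, 5 had unadjusted p-values under 0.05, all in the higher direction, beside 1.37% of all genes. Gbp5 was at 4.15, 4.78, 21.9 and 205 CPM, a log2 difference of 4.62 that became 2.12 without adenosine 2, and the difference of 3.12 for Gbp2 became -0.45. Adenosine 1 was the lowest of the 4 libraries in 10 of the 18 genes (1320 of all 8470). The adenosine libraries therefore did not share this pattern.

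MHC class II genes followed the same library. Of 11 tested, 8 were highest in adenosine 2 (1727 of all 8470 genes) and 7 lowest in adenosine 1 (1320 of 8470), and 0 were called. Their median log2 difference was 0.44, -0.34 without adenosine 2 and 0.87 without adenosine 1. Cd74, the invariant chain, was at 8124, 9972, 6551 and 15816 CPM. Per cell, H2-Aa, H2-Ab1, H2-Eb1 and Cd74 together took a median of 1.70%, 1.61%, 1.5% and 3.91% of a member's UMIs. The lowest member of adenosine 2 had 0.226%, where each other library had members at 0.

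**Figure D5:**
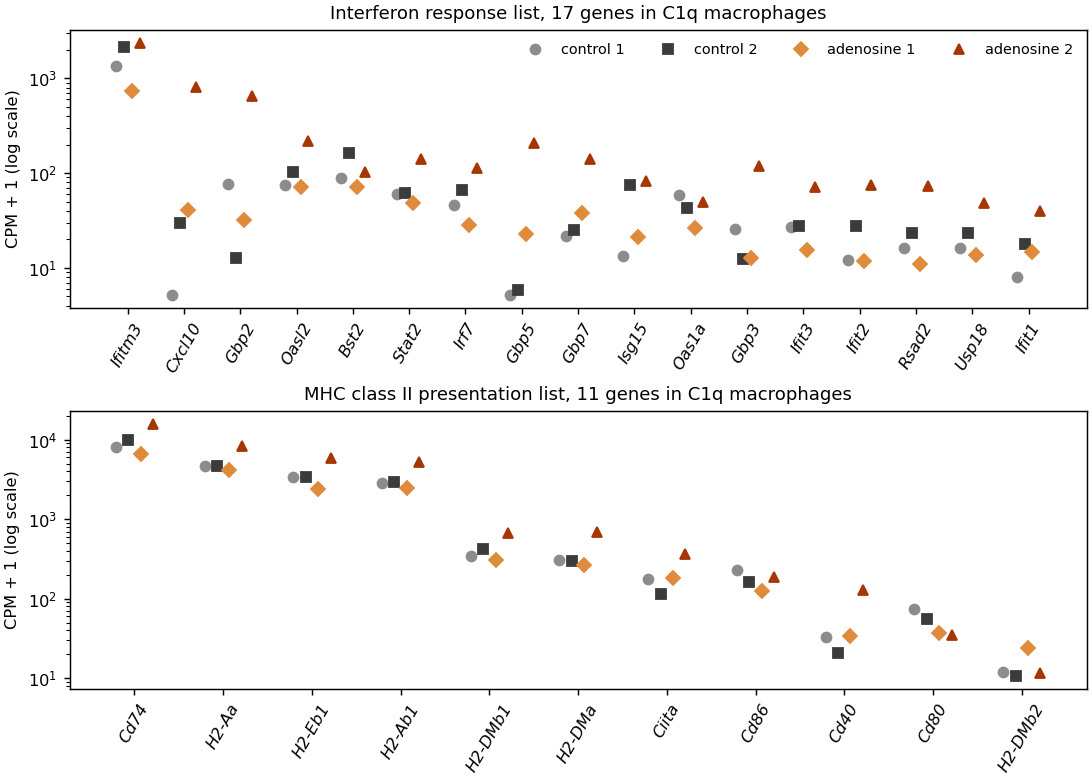
CPM + 1 (log scale) in C1q macrophages of 17 tested genes of the interferon list (top) and the 11 tested genes of the MHC class II list (bottom), 1 symbol per library. Adenosine 2 is the highest library in 15 and 8 of these genes, while adenosine 1 lies with or below the controls in most.

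Lymphocyte measures moved with that library. Barcodes with at least 3 UMIs of Cd3e, Cd3d, Cd3g and Trac made up 2.07%, 0.647%, 2.61% and 15.4% of all kept cells, and the gene for interferon gamma, Ifng, had 31, 3, 27 and 1228 UMIs over all kept cells and 0, 0, 0 and 8 in the members. Within the members the T or NK cell list (11 genes) summed to 98.1, 20.4, 41.9 and 1892 CPM, of which the chemokine Ccl5 gave 1689 in adenosine 2, found in 68 of 77 members, with 29.0% of its UMIs in 1 cell. In the same library Ccl5 was at 915 CPM in neutrophils and 760 in Ly6c2-high monocytes. The receptor subunits Cd3e and Trac were both at 26.7 CPM in adenosine 2, at 4.56 and 0.911 in adenosine 1, and at or below 0.435 in the controls. Their part in the interferon and MHC class II values was not tested.

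The promoters of 3 interferon-list genes and of Cxcl9 are shown since these genes were highest together in adenosine 2. Capitals mark GAAA followed by any 2 bases and GAAA again, the repeat read by interferon regulatory factors on either strand; the windows are as for the C1q genes, from RefSeq on GRCm38.p6, and all 4 symbols matched.
Cxcl9, chr5:92328030-92328329, minus strand: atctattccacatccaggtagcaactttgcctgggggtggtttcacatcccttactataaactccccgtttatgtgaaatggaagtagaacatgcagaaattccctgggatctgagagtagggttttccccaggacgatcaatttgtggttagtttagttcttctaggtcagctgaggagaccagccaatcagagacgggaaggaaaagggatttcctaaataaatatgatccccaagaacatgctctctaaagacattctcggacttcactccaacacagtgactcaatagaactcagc
Cxcl10, chr5:92348840-92349139, minus strand: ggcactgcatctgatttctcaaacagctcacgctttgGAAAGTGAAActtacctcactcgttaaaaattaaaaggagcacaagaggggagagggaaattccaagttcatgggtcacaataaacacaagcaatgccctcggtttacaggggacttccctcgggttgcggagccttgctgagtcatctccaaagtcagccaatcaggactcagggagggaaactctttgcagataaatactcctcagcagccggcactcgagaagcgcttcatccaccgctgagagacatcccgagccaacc
Gbp2, chr3:142620413-142620712, plus strand: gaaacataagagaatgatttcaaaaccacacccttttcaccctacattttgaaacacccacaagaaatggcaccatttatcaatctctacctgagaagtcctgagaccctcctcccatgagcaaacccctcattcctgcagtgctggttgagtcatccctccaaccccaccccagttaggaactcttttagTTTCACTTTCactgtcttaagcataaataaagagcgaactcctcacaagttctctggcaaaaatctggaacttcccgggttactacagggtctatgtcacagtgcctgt
Gbp5, chr3:142496684-142496983, plus strand: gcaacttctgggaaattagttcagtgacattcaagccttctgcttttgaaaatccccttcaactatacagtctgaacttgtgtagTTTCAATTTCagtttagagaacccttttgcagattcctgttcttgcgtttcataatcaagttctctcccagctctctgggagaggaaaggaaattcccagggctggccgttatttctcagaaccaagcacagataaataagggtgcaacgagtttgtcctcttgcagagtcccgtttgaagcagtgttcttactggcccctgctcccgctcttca
Cxcl10, Gbp2 and Gbp5 each held 1 repeat, starting 213, 59 and 165 bases before the gene start. The repeat was in 3.44% of 32851 promoters. The Cxcl9 window did not hold these letters.

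Whether adenosine against control differed between the members and Ly6c2-high monocytes of the same libraries was tested with a class by treatment term. By edgeR 0 of 10948 genes (0%) were called, the smallest adjusted p was 0.760, and 479 genes had unadjusted p-values under 0.05. Without control 1 the number called was 86, and without control 2 it was 40. The comparison was added after the data were seen, since Arg1-high macrophages were too few in 2 libraries for the planned one. Gbp5 had the lowest p: its log2 difference was 4.62 in the members and 1.52 in monocytes, where it stood at 11.4, 9.59, 5.56 and 57.1 CPM. Gbp2 was highest in adenosine 2 in monocytes too, at 25.2, 27.2, 10.8 and 265 CPM, and for Thbs1 the log2 differences were -4.03 and -4.98.

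Most lipid and lysosomal genes were lowest in adenosine 2. All 24 were tested and 18 of them had their lowest value there, beside 2866 of all 8470 genes. Of the 24, 0 were called, and the median log2 difference was -0.29, or -0.80 without adenosine 1. Trem2 was at 247, 213, 265 and 60.9 CPM, and Gpnmb, a transmembrane glycoprotein of lipid-laden macrophages, at 51.1, 64.8, 350 and 6.41. Apoe and the cathepsin gene Ctsb were highest in adenosine 1, at 6064 and 2280 CPM, and lowest in adenosine 2, at 2527 and 845. The 2 adenosine libraries thus lay at opposite ends for Trem2, Gpnmb, Apoe and Ctsb. Of the 24 genes, 9 were highest in adenosine 1 and 4 were lowest there. Groups did not overlap upwards in 1 and downwards in 5, beside 13.3% and 10.5% of all genes. The classical monocyte list (10 genes) summed to 3201, 3948, 2689 and 6189 CPM in the members, and Plac8 gave 3056 of that sum in adenosine 2. Of these 10 genes, 4 were highest in adenosine 2 and 4 in control 2. The part of monocyte RNA in the lipid and lysosomal values was not tested.

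Complement genes other than C1q gave 10 tested of 15, 0 called, 1 not overlapping upwards and 4 downwards, beside 13.3% and 10.5% of all genes. Cfp, properdin, which stabilizes the alternative pathway convertase, was at 192, 319, 138 and 81.2 CPM, and the anaphylatoxin receptor C5ar1 at 167, 399, 157 and 115. The log2 difference of C5ar1 was -1.10, and -0.29 without control 2. Cfb, a protease of the alternative pathway, was at 18.0, 32.2, 21.0 and 285 CPM, again highest in adenosine 2.

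Of 28 inflammatory mediators 23 were tested and 0 called. Of the 23, 12 were highest in control 2 (1838 of all 8470 genes) and 8 in adenosine 2 (1727 of 8470). Ccl6 and Ccl9, chemokines of myeloid cells, were at 977, 1136, 609 and 381 CPM and at 672, 676, 432 and 214 CPM, both lower in the adenosine libraries, with log2 differences of -1.13 and -1.10. Tnf was at 13.8, 42.2, 10.0 and 54.5 CPM and overlapped. The list median of -0.21 became 0.55 without control 2.

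Hypoxia and glycolysis genes followed the libraries and not the groups. Of 18 tested, 15 were lowest in control 1 (1857 of all 8470 genes) and 11 highest in control 2 (1838 of 8470), with 0 called. The median of 0.06 became 0.56 without control 2. Ldha, the lactate dehydrogenase of glycolysis, was at 185, 402, 319 and 284 CPM.

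The lists for uptake, repair and bone held no called gene either. Efferocytosis genes had 15 of 20 tested with a median of 0.13 (-0.43 to 0.42 with 1 library left out), and Abca1, a cholesterol exporter, was at 434, 332, 397 and 86.5 CPM. Repair growth factors and proteases had 17 of 24 tested, a median of -0.43 (-1.74 without adenosine 1), and 12 lowest in adenosine 2 (2866 of all 8470 genes). Igf1, a growth factor for bone, was at 58.0, 26.1, 107 and 6.41 CPM and overlapped. Osteoclast genes had 8 of 12 tested and a median of -0.55. The receptor for the osteoclast-inducing cytokine, Tnfrsf11a, was at 274, 293, 273 and 139 CPM, while Calcr, the calcitonin receptor of mature osteoclasts, had no UMI in any library.

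Scavenger receptors had 13 of 19 tested with 0 called and a median of -0.04. Clec4n, the lectin dectin-2, was at 253, 615, 149 and 173 CPM, a log2 difference of -1.46 that was -0.63 without control 2. Alternative activation products had 10 of 14 tested with a median of -0.14 (-1.80 without adenosine 1, 0.49 without control 2). Pf4, a platelet-type chemokine that macrophages also make, was at 142, 1058, 749 and 78.0 CPM, so its higher and its lower pair each held 1 library of either group. Iron genes had 15 of 20 tested and a median of -0.15, and transcription factors 16 of 20 tested and a median of -0.03. Spi1, which encodes PU.1, was at 449, 620, 457 and 693 CPM, and Maf at 240, 411, 468 and 157.

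Cell cycle genes had 16 of 24 tested and 0 called, with 6 not overlapping upwards, beside 13.3% of all genes, and a median of 0.25. Mcm3, part of the replicative helicase, was at 13.8, 20.4, 46.5 and 27.8 CPM. Stress genes had 16 of 18 tested, 3 not overlapping upwards and 1 downwards (13.3% and 10.5% of all genes), a median of 0.07, and 0 called. Csf2ra and Csf2rb, the receptor chains for GM-CSF, overlapped at 120 to 204 CPM, and the ligands Il34 and Csf2 had no UMI in the members.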

How the data were processed

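Droplet 3' single-cell libraries were deposited as raw UMI counts. Per the submitters' processing notes, the authors ran bcl2fastq and Cell Ranger 7.0.0 on build mm10; the treatment of intronic reads is not stated in the labels. The 4 libraries held 35274 barcodes (6753 to 9949 each) with 32277757 to 68117846 UMIs, and 1576 were removed for under 200 genes or 10% or more mitochondrial counts. Doublets were kept in the main analysis; Scrublet (scanpy 1.11.5) scores served an alternative.

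Member counts were summed per library (723627, 2300469, 1097255 and 935968 UMIs). Low genes were dropped by filterByExpr, TMM factors were computed, and edgeR 4.0.16 gave quasi-likelihood tests (R 4.3.3), two-sided, Benjamini-Hochberg over all genes, threshold 0.05; the test was checked on simulated counts. CPM divides by the summed UMIs. Alternatives were DESeq2 1.42.0, filters, scaling, the replicate number, other cell rules and leaving out each library. Named genes were the 8 per direction with the lowest p and at least 20 CPM, the rule's genes, Mrc1, up to 6 members per list by level, adenosine genes, and the 12 extremes against Arg1-high cells and monocytes; others were picked after their values were seen. Clec7a and Mx1 were not matched. A few genes counted in the lists are not reported here by name. The members and lists were chosen with earlier results of these data known.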

Additional observations from a re-analysis of the deposited data

How the results depend on the processing

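The number of genes called between adenosine and control was 0 in the analysis reported, with library size alone, with the replicate number as a block, with at least 10 C1q UMIs, with no Arg1 UMI, with the rule applied after thinning, with doublet scores removed, with the S100 limit and with mitochondrial counts below 5%. It was 9 by DESeq2, 128 without a filter on low counts, and 0 to 241 when 1 library was left out: 0 without either control, 241 without adenosine 1 and 58 without adenosine 2. In these fits the lone library is assumed to vary like the other group, and the cause was not tested. Replicate numbers in the labels name no shared animal or day, and deviations of libraries with the same number correlated at r = -0.02 across genes; the replicate block gave 0 calls. The share difference was 0.327 percentage points without control 2, opposite to the -1.02 reported; leaving out any library gave -2.36 to 0.327, and the other settings kept its direction. The added difference from monocytes gave 0 calls, 152 without a filter, and 0 to 86 when 1 library was left out. Ccl5 and Gbp2 changed direction without adenosine 2, to -0.55 and -0.45 on the log2 scale; with 1 library left out they reached 6.01 and 4.86. The other 27 of 29 genes followed kept their direction in every alternative that gave a value. The planned difference from Arg1-high macrophages and its alternatives were not run, since 12 and 9 cells were under the limit of 20. Depth limits low genes: 3 counts equal 4.15, 1.30, 2.73 and 3.21 CPM.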
